A study of Drosophila melanogaster with 2 samples.

Results

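Glutathione transferases and antioxidant enzymes were followed across the cell classes of the adult Drosophila melanogaster midgut at 2 ages. The members were all genes whose names start with Gst, Prx, Sod or Trx, together with Cat, Gclc, Gclm, cnc and Keap1, and they numbered 50 of the 9607 genes in the deposited table. They comprised 34 glutathione transferases, 4 peroxiredoxins, 2 thioredoxin genes, 4 superoxide dismutase and catalase genes, 2 glutathione synthesis genes and 2 regulators. The prefix also took in Sodh-1 and Sodh-2, which encode sorbitol dehydrogenases and are no antioxidant enzymes, so that 48 members remained without them. Midgut epithelial cells came from wild type Canton S females aged 1 day or 3 days, with 1 droplet library per age. The day 1 library held 2711 cells and 86114751 unique molecular identifiers (UMIs, each standing for a captured transcript molecule), and the day 3 library held 1473 cells and 58700717 UMIs. The labels give no number of animals behind a library. With 1 library per age there was no replicate check, no test and no p-value, and the intervals given below cover counting error only.

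Glutathione is a small thiol made from glutamate, cysteine and glycine, and glutamate-cysteine ligase carries out the limiting step with a catalytic subunit (Gclc) and a modifier subunit (Gclm). Glutathione transferases join glutathione to electrophilic compounds such as plant toxins, insecticides and products of lipid oxidation, and the Delta and Epsilon classes (GstD and GstE) are expanded in insects. Superoxide dismutases turn superoxide into hydrogen peroxide, which catalase and peroxiredoxins remove, and thioredoxin reductase with thioredoxin recharges peroxiredoxins. In flies, which lack glutathione reductase, the thioredoxin system also keeps glutathione reduced. The transcription factor Cnc, the fly counterpart of mammalian Nrf2, induces many of these genes and is held back by Keap1. In the fly midgut this system is known for its part in the response to ingested toxins and in the control of stem cell division.

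Cells were grouped by the 10 classes of the authors' annotation: 2 of intestinal stem cells (ISC1, ISC2), 3 of enteroblasts (EB1, EB2, EB3), the EC-like class, 2 of enteroendocrine cells (AstC+EE, Tk+EE) and 2 of enterocytes (apEC, from the anterior and posterior midgut, and mEC, from the middle midgut). Each level is the mean over cells of the depth-corrected count, scaled so that every cell totals 10000, and day 1 is given before day 3 throughout. The summed level of 9 enterocyte markers was 992 and 1160 in apEC and 106 and 130 in mEC, against 2.19 to 4.51 in the stem cell and enteroblast classes. The EC-like class did not carry the enterocyte markers at such levels (7.42 and 4.60), and its 6 progenitor markers summed to 34.7 and 33.3, close to 36.4 and 34.7 in ISC2. The 7 enteroendocrine markers summed to 180 and 276 in AstC+EE and 1560 and 1490 in Tk+EE, against 0.171 to 1.94 in every other class. Visceral muscle markers (5), measured hemocyte markers (3) and measured fat body markers (2) each summed to at most 1.09 in any class. The classes were made from the same transcriptomes, so differences between them are a description. The rarer classes were small, with 43 and 38 apEC, 29 and 22 mEC, 36 and 32 AstC+EE and 24 and 30 Tk+EE cells.

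Of the 50 members, 37 reached 0.5 per 10000 in at least 1 class and library. The other 13 (GstD4, GstD6, GstD10, GstD11, GstE1, GstE2, GstE4, GstE10, GstE13, GstO2, GstT2, GstZ1 and Sodh-2) stayed below it, the highest of them being GstO2 at 0.449 in AstC+EE cells at day 3. An enterocyte class held the highest level in both libraries for 15 of the 37, or 40.5%, compared with 21.7% of the 3527 genes that reached the same level. An enteroendocrine class was highest for 7 (18.9%, against 29.0% of genes) and a stem cell or enteroblast class for 8 (21.6%, against 30.7%). No member was highest in the EC-like class in both libraries (1.36% of genes), and for 7 the class group differed between libraries (17.3% of genes). With 0.1 per 10000 added to both levels, the highest class exceeded the lowest at least 4-fold in both libraries for 21 of the 37, while 49.7% of genes did so, and these 21 included 7 of 8 GstE and 5 of 7 GstD genes but neither cnc nor Keap1. Ribosomal protein genes took a median of 60.0% of counts in ISC2 at day 1 and 20.8% in apEC, which lowers the share left for other genes in progenitors. Scaled without those genes, 13 members were highest in an enterocyte class (17.9% of genes), 13 in a progenitor class (42.5%) and 5 in an enteroendocrine class (19.2%).

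**Figure D1:**
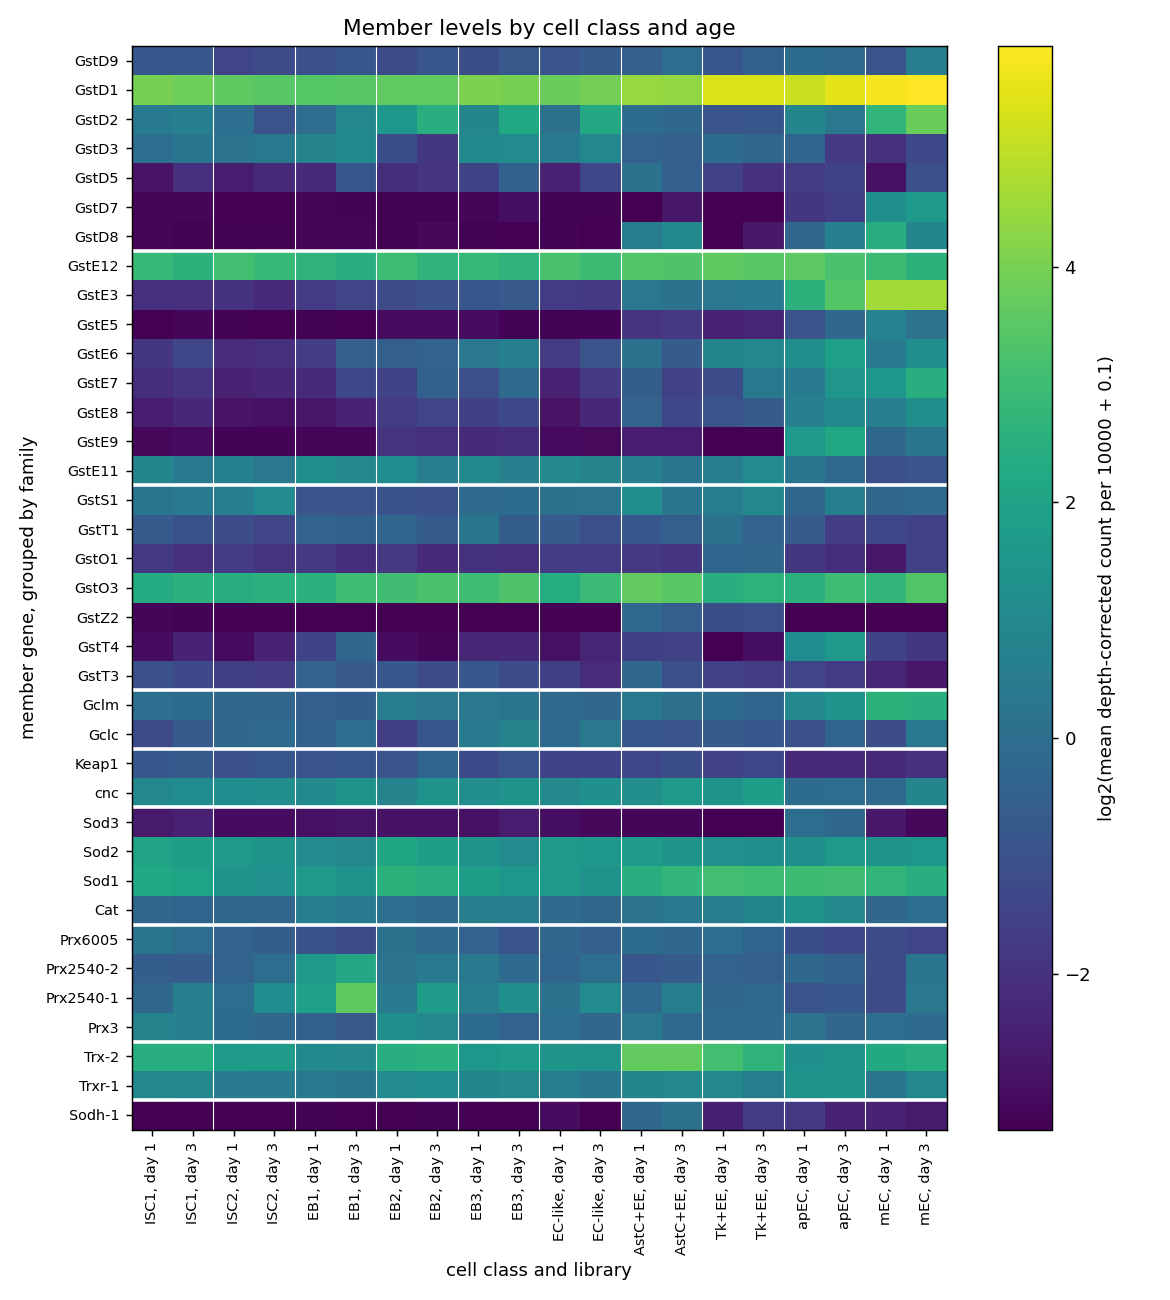
Levels of the 37 members that reached 0.5 per 10000, as log2 of the mean depth-corrected count per 10000 plus 0.1 (colour), in each of the 10 cell classes (columns, day 1 and day 3 side by side), with white lines between gene families. The adjacent day 1 and day 3 columns look alike for most members. GstE3 is bright in the enterocyte columns, GstE9 is brightest in apEC, GstD7 is brightest in mEC, and Prx2540-1 is brightest in EB1 at day 3.

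The 11 GstD genes lie in a single array on chromosome arm 3R (12364776 to 12385624, BDGP6 assembly), with GstD10, GstD9 and GstD1 on the minus strand and the others on the plus strand. Neighbours in the array had unlike class patterns. GstD1, which encodes a transferase known for its activity towards DDT, was detected in every class at 10.9 to 16.5 in the stem cell, enteroblast and EC-like classes. Its level was 21.7 and 20.7 in AstC+EE, 40.6 and 40.5 in Tk+EE, 35.4 and 45.4 in apEC and 53.1 and 58.5 in mEC. The order from progenitors through Tk+EE to mEC was the same in both libraries, whereas apEC and Tk+EE changed places. The mEC level of GstD1 exceeded the lowest class 4.84-fold and 5.24-fold, with 0.1 per 10000 added to both. Scaled without ribosomal protein genes, GstD1 was still lowest in a progenitor class, at 23.2 and 22.1 in EB2 against 70.9 and 81.0 in mEC. GstD2, the plus strand gene nearest to GstD1, was 6.55 and 13.4 in mEC, and its lowest class levels were 0.418 at day 1 in Tk+EE and 0.408 at day 3 in ISC2. The value of 0.418 does not stand for a measured level. In UMIs rebuilt for cells of at most median depth, only 1 of 23 Tk+EE cells of day 1 had a GstD2 UMI. That gave 0.0537 per 10000 (95% exact Poisson interval 0.00136 to 0.299).

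GstD7 was found mainly in the middle midgut enterocytes, with 2.32 and 2.95 in mEC, 0.178 and 0.230 in apEC and at most 0.05 in any other class. In UMIs rebuilt for cells of at most median depth, the joined enterocytes had 27 and 66 GstD7 UMIs, or 0.705 (95% exact Poisson interval 0.465 to 1.03) and 1.95 (1.51 to 2.49) per 10000. The progenitors had 15 and 6 UMIs, or 0.00755 and 0.00751 per 10000. GstD8, the next gene in the array, was 5.29 and 1.75 in mEC, 0.719 and 1.51 in apEC and 1.37 and 2.01 in AstC+EE, with at most 0.0555 in Tk+EE and at most 0.0144 in progenitor classes. Few AstC+EE cells carried the GstD8 level of that class. Its 81 and 68 rebuilt UMIs lay in 5 of 32 and 3 of 29 shallow AstC+EE cells. Of the shallow mEC cells, 6 of 8 and 4 of 11 had a GstD8 UMI, and 3 of 8 and 4 of 11 had it after thinning to 4000 UMIs. GstD3 had the opposite placement, with 1.64 and 2.03 in EB1 and 1.94 and 2.05 in EB3 but 0.150 and 0.304 in mEC. GstD5 was highest in AstC+EE at day 1 (0.978) and in EB3 at day 3 (0.615).

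**Figure D2:**
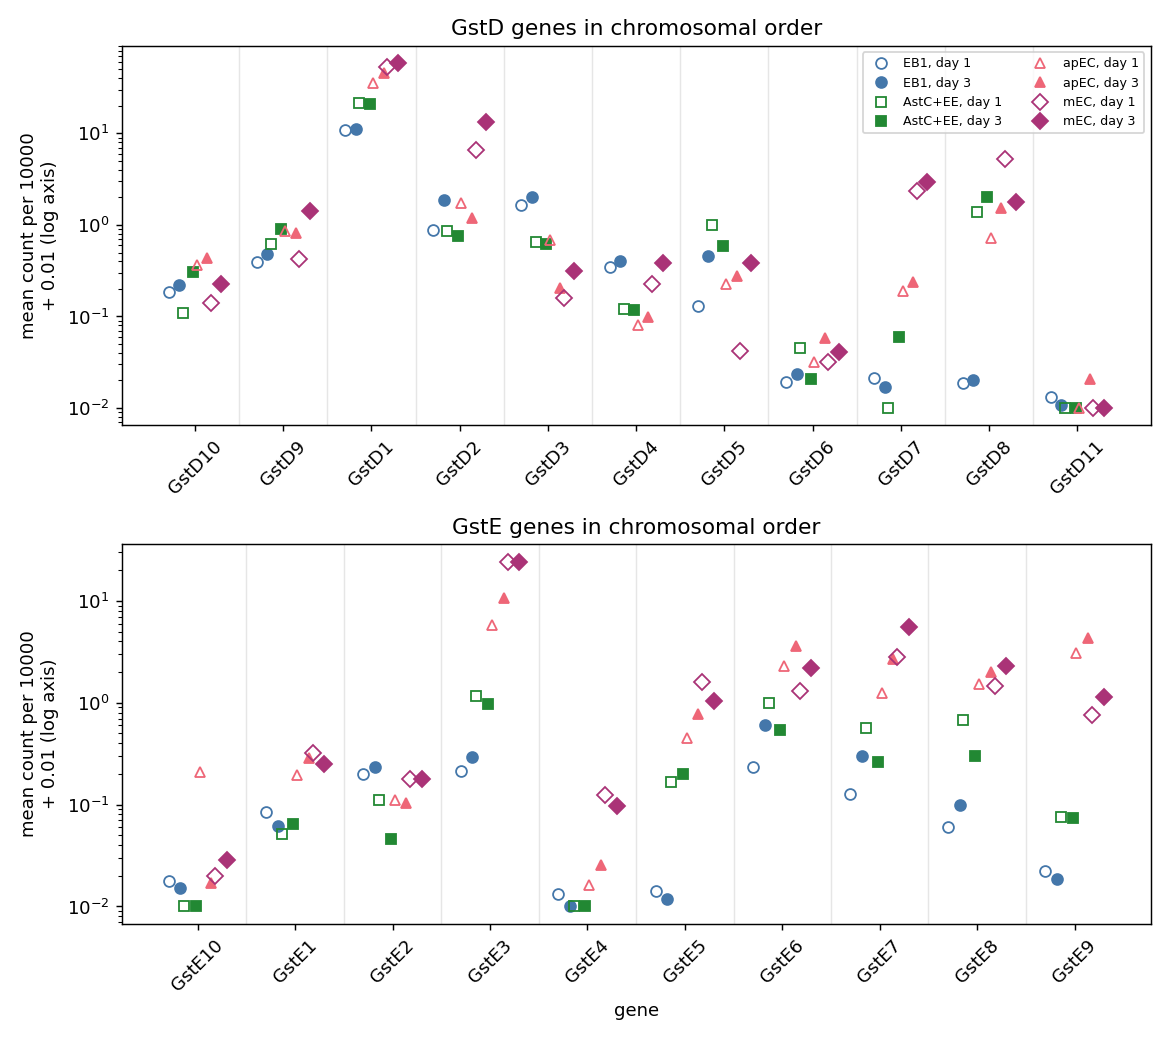
Levels of the GstD genes (top) and of the GstE genes that form an array (bottom) in chromosomal order, as the mean depth-corrected count per 10000 plus 0.01 on a log axis, in EB1 (circles), AstC+EE (squares), apEC (triangles) and mEC (diamonds) at day 1 (open) and day 3 (filled). Adjacent genes differ in which class is high: GstD3 is higher in EB1 than in mEC, and GstD7 is higher in mEC than in EB1.

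The GstE array on chromosome arm 2R (18396638 to 18409835) holds GstE10 on the minus strand and GstE1 to GstE9 on the plus strand, while GstE11, GstE12 and GstE13 lie elsewhere on the arm. From GstE5 to GstE9 each gene of the array was highest in an enterocyte class in both libraries, as was GstE3. GstE3 had the widest range of all members that kept the same highest class. It was 24.1 and 24.3 in mEC and 5.85 and 10.6 in apEC, then 1.15 and 0.969 in AstC+EE and 1.17 and 1.24 in Tk+EE, and 0.120 to 0.493 in the stem cell, enteroblast and EC-like classes. With 0.1 per 10000 added to both, which shrinks the ratio at such low levels, the mEC level exceeded the lowest class 103-fold and 111-fold. At 4000 UMIs per cell GstE3 was detected in 82.1% (95% exact binomial interval 63.1 to 93.9) and 100% (87.2 to 100) of enterocytes and in 6.58% (5.14 to 8.26) and 6.90% (4.63 to 9.81) of progenitors. Before thinning these shares were 89.7% and 100% at median depths of 11700 and 10500 UMIs in enterocytes and 27.4% and 24.6% at 19800 and 20400 UMIs in progenitors.

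GstE9 was instead an apEC gene, with 3.06 and 4.32 there, 0.743 and 1.13 in mEC, at most 0.165 in any progenitor class and 0 in Tk+EE. At 4000 UMIs it was found in 42.9% (24.5 to 62.8) and 59.3% (38.8 to 77.6) of enterocytes and in 0.290% and 0.739% of progenitors, or 3 cells of each library. GstE7 was 2.82 and 5.53 in mEC and 1.25 and 2.69 in apEC, against 0.0861 and 0.198 in EC-like cells. GstE6 was highest in apEC (2.30 and 3.56), next in Tk+EE at day 1 (1.74) and in mEC at day 3 (2.18), and reached 1.17 and 1.46 in EB3. GstE5 was 1.60 and 1.02 in mEC and at most 0.0251 in progenitors. GstE12 and GstE11 differed from the array. GstE12 was 5.31 to 11.9 in all 10 classes, and GstE11 was 1.17 to 2.32 in progenitor, EC-like and, at day 1, enteroendocrine cells but 0.372 and 0.433 in mEC. The exons of GstE9, GstE10, GstE12 and GstE13 overlap those of a gene on the other strand, and whether the counting used strand is not given in the sources used here.

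Among the other glutathione transferases, GstT4 and GstZ2 had the narrowest distribution. GstT4, a Theta class gene on the X chromosome, was 2.12 and 3.05 in apEC, 0.265 and 0.719 in EB1 and at most 0.261 in the remaining classes. GstZ2, of the Zeta class, which is known for maleylacetoacetate isomerase activity in tyrosine breakdown, was 0.775 and 0.569 in AstC+EE and 0.358 and 0.372 in Tk+EE. No GstZ2 UMI was found in enterocytes, which allows up to 0.0783 and 0.0888 per 10000 when the limit is set at 3 counts, and 6 and 4 UMIs were found in progenitors. At 4000 UMIs GstZ2 was detected in 34.6% (22.0 to 49.1) and 21.4% (11.6 to 34.4) of enteroendocrine cells and in 0.0967% and 0.246% of progenitors. GstO1, an Omega class gene, was 0.686 and 0.765 in Tk+EE and at most 0.251 elsewhere. GstO3 was found in every class, at 12.5 and 11.3 in AstC+EE and 4.99 to 10.3 elsewhere, but without ribosomal protein genes in the total EB3 was higher at day 3 (22.6 against 18.4). GstS1, the only Sigma class gene, ranged from 0.389 in EB2 to 2.18 in AstC+EE and had no fixed highest class. Sodh-1, a sorbitol dehydrogenase, was highest in AstC+EE, with 0.712 and 1.01, against 0.0753 and 0.213 in Tk+EE. It was 0.193 and 0.0886 in apEC, 0.0903 and 0.058 in mEC and at most 0.0230 in progenitor and EC-like cells.

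Of the 2 subunits of glutamate-cysteine ligase, Gclm was highest in mEC (5.95 and 5.28), was 1.85 and 2.45 in apEC and 0.558 to 1.36 in progenitors. Gclc was highest in EB3 (1.25 and 1.61) and was 0.352 in mEC at day 1 and 1.23 at day 3. The subunits of the same enzyme thus had different highest classes in both libraries. The transcription factor gene cnc was 1.64 to 2.57 in the stem cell and enteroblast classes, 2.54 and 3.46 in Tk+EE and 0.854 and 0.902 in apEC. Scaled without ribosomal protein genes cnc was higher in progenitors than in Tk+EE, at 5.19 and 5.17 in ISC2 against 3.65 and 4.77. Keap1 was 0.478 and 0.505 in ISC1 and 0.115 and 0.114 in apEC. Both regulators were therefore lower in apEC than in ISC1 in both libraries, while the GstE array genes named above were higher there. Part of cnc shares exon positions with Irk1 and CG46310 on the other strand.

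Sod1, the cytosolic copper-zinc superoxide dismutase, was 8.49 and 8.06 in Tk+EE and 7.88 and 8.11 in apEC, against 2.40 to 5.93 in progenitors. On the scale without ribosomal protein genes Sod1 was 12 and 11.2 in Tk+EE and 10.7 and 11.1 in apEC, close to EB2 with 11.1 and 9.61. Sod2, the mitochondrial manganese enzyme, varied less, with 4.15 and 3.42 in EB2 and 2.08 and 1.81 in EB1. Sod3, which encodes an extracellular enzyme, was 0.896 and 0.771 in apEC and at most 0.0795 elsewhere. Cat was 2.56 and 1.89 in apEC and 0.679 to 1.41 in progenitors. Scaled without ribosomal protein genes, Cat was 3.62 and 2.5 in apEC and 3.39 and 3.1 in EB1, so the direction turned at day 3. The mitochondrial peroxiredoxin Prx3 was highest in EB2 (2.30 and 1.91) and was 0.625 and 0.488 in EB1, and Prx6005 was highest in ISC1 (1.06 and 0.882). Prx2540-1 and Prx2540-2 were highest in EB1, at 3.73 and 12.1 and at 2.96 and 4.57. Trx-2, the cytosolic thioredoxin, was 12.7 and 12.5 in AstC+EE and 8.34 and 6.14 in Tk+EE, against 1.99 and 1.89 in EB1. Its reductase Trxr-1 was 1.07 to 2.62 in all classes, highest in apEC (2.61 and 2.62). Scaled without ribosomal protein genes Trxr-1 was instead highest in ISC1 at day 1 and EB3 at day 3.

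Between the ages most members differed little. A difference is given as log2 of day 3 over day 1 after 0.1 per 10000 was added to both, and it was counted where it reached 2-fold (log2 of 1) in a gene with at least 0.5 per 10000 in 1 library and values above 0 in 10% or more of the cells there. The enteroendocrine classes were joined for this, as were the enterocyte classes, which left 8 classes of at least 50 cells per library. Over these, 181 member and class pairs passed the filter. Of them 10 were at least 2-fold higher at day 3, or 5.52%, compared with 1.17% of the 14324 pairs over all genes. Only 1 was at least 2-fold lower, or 0.552%, against 0.831% over all genes. The pairs came from 5 members, and Prx2540-1 and GstD2 accounted for 8 of the 11. GstE6 and GstT4 in EB1, Gclc in enterocytes and GstD2 in ISC2 reached 0.5 per 10000 only in the library where they were higher. Pairs of the same gene in different classes are not independent. The median difference of the members lay between -0.10 and 0.05 in 7 of the classes. In enterocytes it was 0.25, against -0.03 over all genes, and 19 of 28 members were above 0.

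**Figure D3:**
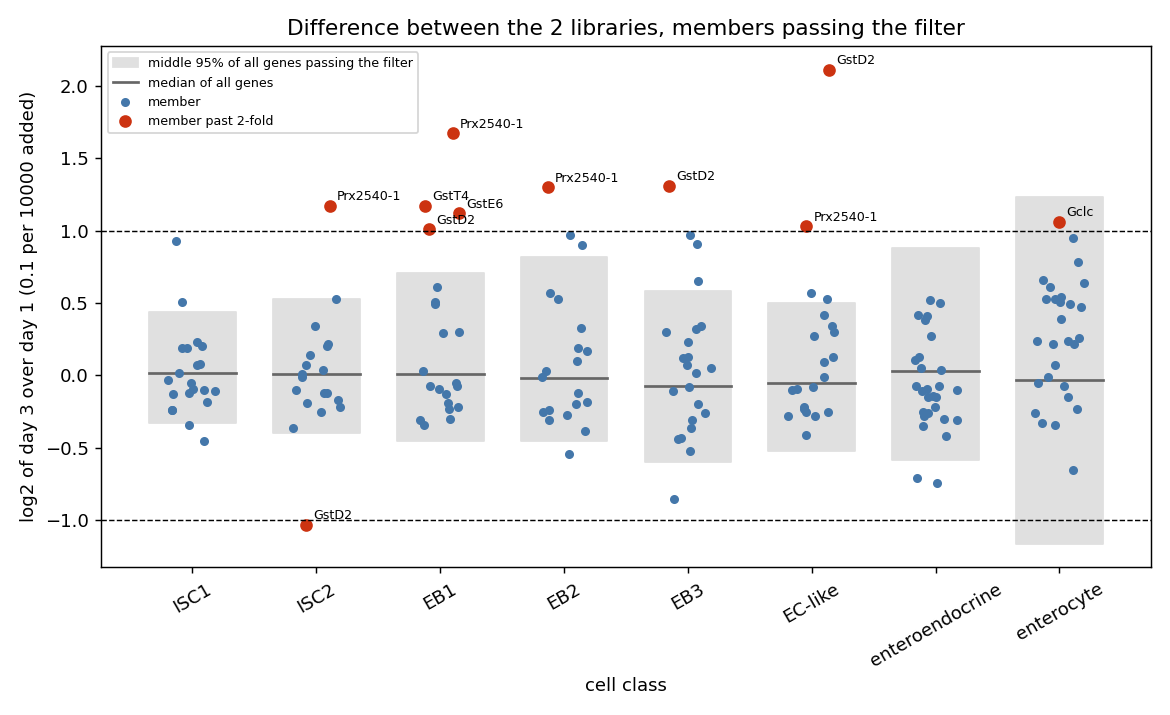
Log2 of day 3 over day 1 (0.1 per 10000 added) for each member that passed the filter in each of 8 cell classes, beside the middle 95% (grey) and the median (line) of all genes that passed it. Red points past the dashed lines at 1 and -1 are the named members; GstD2 in EC-like cells is the farthest at 2.11, and GstD2 in ISC2 is the red point below -1.

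Prx2540-1, which encodes a peroxiredoxin of the 1-cysteine type, was higher at day 3 in ISC2 (0.894 and 2.14, log2 1.17), EB1 (3.73 and 12.1, log2 1.67), EB2 (1.28 and 3.31, log2 1.3) and EC-like cells (0.969 and 2.09, log2 1.03). The share of all genes past 2-fold upward was 0.574% in ISC2, 1.17% in EB1, 1.43% in EB2 and 0.313% in EC-like cells. In ISC1 (0.745 and 1.51) it fell just short at log2 0.93, and in EB3 it was 0.65. In enteroendocrine cells it was 0.766 and 1.12 and in enterocytes 0.388 and 0.734. The EB1 difference ran through the whole class: the median cell had 2.09 at day 1 and 9.96 at day 3, and the lower quartile at day 3 (4.48) was near the upper quartile at day 1 (5.21). The share of EB1 cells at 5 per 10000 or more, a level chosen after the values were seen, was 26.9% (24.1 to 29.8) and 72.4% (67.8 to 76.8). In rebuilt UMIs EB1 had 2.79 (2.67 to 2.92) and 11.6 (11 to 12.1) per 10000, and at 4000 UMIs 47.2% (41.6 to 52.8) and 80.0% (68.7 to 88.6) of cells were detected. EB1 cells were deeper at day 3, with a median of 45334 UMIs against 34191, and the shares at 4000 UMIs compare cells at equal depth.

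Prx2540-1 (2R, 10424436 to 10425471) and Prx2540-2 (2R, 10418718 to 10419761) are taken here as copies between which reads may be split. The similarity of their sequences was not checked. Prx2540-2 differed less, with 2.96 and 4.57 in EB1 (log2 0.61) and 0.559 and 0.538 in ISC1 (log2 -0.05). Summed over both copies, which does not depend on such a split, the EB1 level was 6.69 and 16.6 (log2 1.3), the ISC2 level 1.56 and 3.01 (log2 0.90), the EB2 level 2.32 and 4.63 (log2 0.97), the EC-like level log2 0.81 higher and the EB3 level log2 0.22 higher. Of the 4 pairs that Prx2540-1 gives to the 10 counted above, only EB1 was past 2-fold in the sum. With the top cell of both libraries removed, Prx2540-1 itself was log2 0.98 in EC-like cells, short of 2-fold. The annotated genes around them were then looked at, a choice made after these values were seen. CG11825 lies between the copies on the minus strand, and it was 1.64 and 6.17 in EB1 (log2 1.85), 0.785 and 1.80 in ISC2 (log2 1.11) and 1.14 and 3.18 in enterocytes (log2 1.40). CG12896, the next gene beyond Prx2540-1 and on the minus strand, was 1.91 and 5.36 in EB1 (log2 1.44) and 0.718 and 1.66 in EB2 (log2 1.11). In enteroendocrine cells the 4 genes differed by log2 0.04 to 0.50. CG33474, which lies within the span of CG11825 on the other strand, was at most 0.0724, in EB1 at day 3. The RefSeq table gives CG12896 a synonym that names it as a peroxiredoxin, so it too may share reads with the copies. CG12896 is not part of the sum over both copies.

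**Figure D4:**
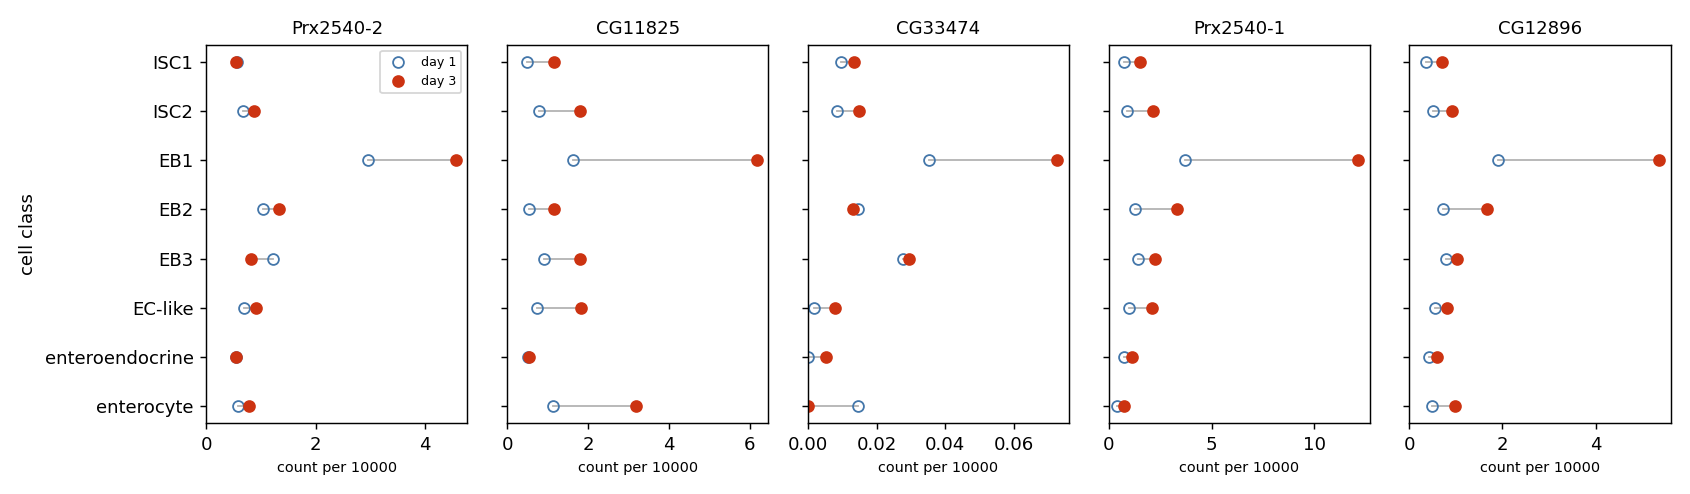
Mean depth-corrected counts per 10000 at day 1 (open) and day 3 (filled) in 8 cell classes for Prx2540-2, CG11825, CG33474, Prx2540-1 and CG12896, in chromosomal order by start. Each panel has its own axis from 0; Prx2540-1, CG11825 and CG12896 each have their widest gap in EB1, and CG33474 is near 0 in every class.

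GstD2 was higher at day 3 in EB1 (0.879 and 1.88, log2 1.01), EB3 (1.70 and 4.36, log2 1.31) and EC-like cells (0.979 and 4.55, log2 2.11), and lower in ISC2 (0.934 and 0.408, log2 -1.03). The share of all genes past 2-fold was 0.347% upward in EB3 and 0.383% downward in ISC2. In ISC1 it was 1.33 and 1.41, in EB2 2.87 and 5.44 (log2 0.90) and in enterocytes 3.68 and 5.65 (log2 0.61). In corrected counts the 2 enterocyte classes went opposite ways, with 1.74 and 1.19 in apEC and 6.55 and 13.4 in mEC. In rebuilt UMIs of the 29 and 27 shallow enterocytes GstD2 was 2.04 (1.61 to 2.54) and 7.73 (6.82 to 8.73) per 10000, a log2 difference of 1.92. Of these cells 8 and 11 were mEC, so the mix of classes differed. By class the rebuilt levels were 1.15 (0.79 to 1.61) and 1.83 (1.29 to 2.53) in apEC, and 4.73 (3.45 to 6.32) and 16.5 (14.4 to 18.8) in mEC. The lower apEC level at day 3 was thus not seen in rebuilt UMIs, where the apEC intervals overlap. The EC-like difference lay in a minority of cells. The median EC-like cell had 0.389 and 0.391, while the 90th percentile was 1.88 and 11.2. Corrected GstD2 values were above 0 in 62.9% and 66.4% of EC-like cells. Of the shallow ones, only 84 of 357 and 48 of 123 had a GstD2 UMI, so most had none. The median value therefore does not stand for a measured level. Cells at 5 per 10000 or more made up 3.95% (2.23 to 6.43) and 18.7% (12.5 to 26.3) of the class. At 4000 UMIs GstD2 was detected in 12.1% (8.88 to 15.9) and 30.1% (22.1 to 39.0) of EC-like cells. In rebuilt UMIs the level was 1.06 (0.965 to 1.16) and 5.60 (5.26 to 5.95) per 10000. Of EC-like cells, 81 at day 1 and none at day 3 belonged to cluster 6 of the deposited clustering, and without that cluster the difference was log2 2.26.

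In ISC2 the GstD2 share of cells detected at 4000 UMIs was alike, at 11.2% (8.10 to 14.9) and 10.5% (6.55 to 15.8). Cells at 5 per 10000 or more made up 4.80% (2.95 to 7.31) and 1.52% (0.414 to 3.83), and the intervals overlap. The highest ISC2 cell of day 1 held 15.3% of that library's summed GstD2 level, and with the top cell of both libraries removed the difference was log2 -0.94, short of 2-fold. In EB1 likewise it was 0.91 without the top cells. In EB3 the highest cell held 26.9% and 23.2% of the GstD2 level, and without the top cells the difference was log2 1.36. Cells at 5 per 10000 or more made up 8.11% (3.03 to 16.8) and 15.4% (8.67 to 24.5) of EB3. In EB1 they made up 3.51% (2.44 to 4.86) and 6.77% (4.51 to 9.69). In both classes these intervals overlap between the ages. Most ISC2 and EC-like cells share cluster 1 of the deposited clustering, and within that cluster GstD2 was 0.906 and 0.411 in the ISC2 class and 0.895 and 4.63 in the EC-like class. In EC-like cells the array neighbours GstD1 (13.9 and 15.2, log2 0.13) and GstD3 (1.31 and 1.80, log2 0.42) differed less between the ages. GstD5, which did not pass the filter there, was 0.0785 and 0.289 (log2 1.12), and in rebuilt UMIs 0.0994 (0.0725 to 0.133) and 0.349 (0.270 to 0.445) per 10000.

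**Figure D5:**
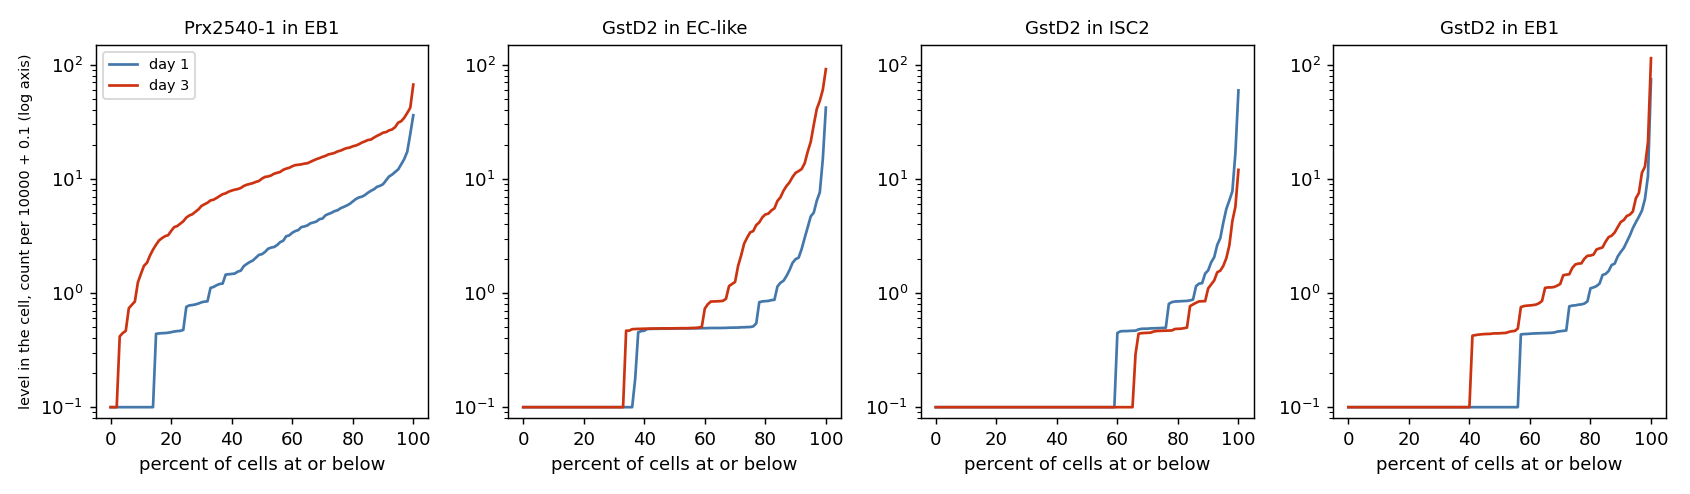
Levels in single cells, sorted from lowest to highest, as depth-corrected counts per 10000 plus 0.1 on a log axis, at day 1 (blue) and day 3 (red). For Prx2540-1 in EB1 the whole day 3 curve lies higher, with medians of 2.09 and 9.96. For GstD2 in EC-like cells the curves share a median near 0.39 and part in the upper percentiles. The correction can give such a low value to a cell without a UMI.

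The other members past 2-fold were at low levels. GstE6 in EB1 was 0.222 and 0.599 (log2 1.12), with 30.7% and 45.7% of shallow EB1 cells holding a UMI, and GstT4 in EB1 was 0.265 and 0.719 (log2 1.17). At 4000 UMIs GstT4 was detected in 9.01% (6.11 to 12.7) and 18.6% (10.3 to 29.7) of EB1 cells, and these intervals overlap. In rebuilt UMIs the GstE6 difference in EB1 was log2 0.91, short of 2-fold, and the GstT4 difference was 1.06. Gclc in the joined enterocytes was 0.374 and 0.888 (log2 1.06), in a class where 3.65% of all genes were past 2-fold upward, and with the top cell of both libraries removed it was 0.98. Just short of 2-fold were GstE7 in EB2 (log2 0.97), EB3 (0.91) and enterocytes (0.95), and GstD5 in EB3 (0.97). The lowest value short of 2-fold was GstT1 in EB3, with 1.09 and 0.557 (log2 -0.85). No member passed 2-fold in ISC1, where 0.0538% of genes were higher and 0.323% lower. The same held for the joined enteroendocrine cells, where 1.69% were higher and 0.738% lower. There the 2 classes could differ in direction: GstE7 was 0.55 and 0.254 in AstC+EE but 0.353 and 1.22 in Tk+EE. Its rebuilt levels were 0.706 (0.447 to 1.06) and 0.233 (0.0937 to 0.48) in AstC+EE and 0.43 (0.186 to 0.847) and 1.4 (1.01 to 1.87) in Tk+EE. No member was past 2-fold downward in EB1, EB2, EB3 or EC-like cells, where 0.326%, 0.191%, 0.462% and 1.19% of genes were, in that order.

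In enterocytes, GstE6 (1.89 and 3.05, log2 0.66), GstE9 (2.13 and 3.15, log2 0.54), GstE8 (1.49 and 2.10, log2 0.47) and GstT4 (1.37 and 2.0, log2 0.51) lay on the same side as GstE7, while GstE12 (10.1 and 8.01, log2 -0.33), Prx3 (log2 -0.34) and GstD8 (log2 -0.65) lay on the other. The enterocyte markers were also higher at day 3, at 1160 against 992 in apEC and 130 against 106 in mEC, and their part in these values was not tested. The summed level of all 34 Gst genes was 78.2 and 98.3 in apEC and 117 and 135 in mEC, against 32.4 and 36.2 in EB1. Without ribosomal protein genes in the total these sums were 108 and 130 in apEC, 158 and 186 in mEC and 78 and 84.3 in EB1. In the progenitor classes the enterocyte marker sum was lower at day 3 in each class, for example 3.45 and 2.91 in EB1, where Prx2540-1, GstD2, GstE6 and GstT4 were higher. The marker sums were low there, and any link between them and these members was not tested.

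Genes of the same pathways outside the naming rule were read in the same way. Of 18 listed glutathione and thioredoxin genes 13 were measured, and none passed 2-fold outside enterocytes. There 2 of the 9 that passed the filter were lower, namely MsrA (log2 -1.11) and SelR (log2 -1.28), which encode methionine sulfoxide reductases, in a class where 3.29% of genes were past 2-fold downward. Jafrac1, a cytosolic peroxiredoxin recharged by thioredoxin, was higher in both enteroendocrine classes than elsewhere, with 32.6 and 24.6 in Tk+EE, 16.2 and 19.4 in AstC+EE and 2.24 and 2.37 in EB1. Its highest class was Tk+EE, whereas that of Trx-2 was AstC+EE. PHGPx, a glutathione peroxidase homologue, was 6.77 and 9.18 in mEC and 2.81 to 5.19 in progenitors, but scaled without ribosomal protein genes its day 1 level was higher in EB3 (11.1) than in mEC (9.26). The small Maf gene maf-S, whose product pairs with Cnc, was 0.988 to 1.55 in the enteroendocrine and enterocyte classes and 0.465 to 0.681 in the others. All 7 listed partners and regulators of Cnc were measured, as were 6 of 8 NADPH supply genes and 12 of 14 other detoxification genes, and none of them passed 2-fold in any class. The 3 measured of 5 listed oxidant source genes did not pass the filter in any class.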

How the data were processed

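Single-cell RNA sequencing with the Chromium Single Cell v3.1 kit was done on 2 libraries, per the labels. Cell Ranger 6.0.1 and the build BDGP6 are named in the submitters' processing notes; the role of each, the annotation and the cell filters are not given in the sources used here. The deposited values are natural log values, ln(1 + n) with n a whole number, and n summed to the deposited depth-corrected total (a score, not a raw count) in all 4184 cells, so n is a corrected count. The deposited cell table gives UMI counts per cell, percent columns for mitochondrial and ribosomal genes, the cell classes and a doublet caller's columns per the file headers; no further doublets were removed.

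The correction gives values above 0 to some genes without a UMI in shallow cells. UMIs were therefore rebuilt by inverting the correction (3 unknowns per gene) in the 2092 cells at or below the median of 28085.5 UMIs. In 850 cells kept out of the fit, 0.199% of 41650 member values departed from the rule. These departures lay in 38 members, 11 followed the rule in every such cell, and 1 member (GstE4) could not be fitted. The ratio between the rebuilt and deposited UMI totals of a cell ran from 1.0 to 1.637, with a median of 1.05. The intervals on rebuilt UMIs do not cover these departures. Rebuilt levels use the deposited UMI total. Detection was read after thinning to 4000 UMIs per cell, leaving out shallower cells (1 of 1035 day 1 progenitors). 1 barcode occurs in both libraries. The scripts were tested on simulated data. Python 3.11.15, numpy 2.4.6, pandas 2.3.3, scipy 1.17.1, numba 0.67.0 and matplotlib 3.10.9 were used.

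All 50 members matched the annotation, 43 by current symbol and the rest by synonym. Members, lists and alternatives were chosen with earlier results of these data known. Values were printed for the 12 members highest over all cells, those past 2-fold, the named role genes with every Prx and Trx gene, and the 10 with the widest class ratio; other members named were chosen after their values were seen. A planned motif count in promoters was not run.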

Additional observations from a re-analysis of the deposited data

Results flagged for a closer look

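GstD2 differed between the ages in opposite directions in different classes, which is why it stands here. The log2 difference of day 3 over day 1 was -1.03 in ISC2, 1.01 in EB1, 1.31 in EB3 and 2.11 in EC-like cells. Each value rests on 1 library per age, and the difference between the classes was not tested. In ISC2, EB1 and EB3 the intervals for the share of cells at 5 per 10000 or more overlapped between the ages.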

How the results depend on the processing

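With 1 per 10000 added in place of 0.1, 2 member and class pairs were past 2-fold upward and 0 downward, against 10 and 1; at the low levels of most members the larger addition shrinks a fold by its construction. Without the highest cell of each library 7 pairs were higher and 0 lower, and 4 of the 11 named pairs fell short of 2-fold. With no filter 12 were higher and 2 lower. In the 5 classes with enough shallow cells, rebuilt UMIs gave 6 higher against 7, and 2 lower against 1, where 1.25% and 0.909% of all gene and class pairs were. Summed counts kept all 11 pairs, and scaling without ribosomal protein genes kept all 11 and gave 15 higher. Apart from rebuilt UMIs, the share of all gene and class pairs past 2-fold under these settings is not given. The counts under the other settings are therefore not set against a background. The median member difference in enterocytes was 0.10 without the filter, against 0.25. Without ribosomal protein genes 13 members were highest in a progenitor class, against 8; the cause was not tested. None of the 11 pairs past 2-fold changed sign in these alternatives. Smaller differences could: Prx2540-1 in EB3 was log2 0.65, but -0.87 in rebuilt UMIs of 37 and 12 shallow cells. CG11825 in enteroendocrine cells was log2 0.05, but -0.9 in rebuilt UMIs. GstD2 in apEC was 1.74 and 1.19, but 1.15 and 1.83 in rebuilt UMIs. No paired analysis was possible because each age has a single library. Enterocyte and enteroendocrine values rest on 22 to 43 cells per class and library. Enteroendocrine cells were also shallow, with medians of 7758.5 to 10595.5 UMIs.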
